A study of Mus musculus with 11 samples.

Results

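The genes described here encode the proteins of the cytosolic ribosome, measured in periostin-lineage cells of the mouse mammary gland. They were chosen by name: every target called Rpl or Rps with a number, plus Rpsa, Rplp0, Rplp1 and Rplp2, without the S6 kinase genes. The rule found 81 genes among 19965 endogenous probes, 49 of the large and 32 of the small subunit. Of the 81, 74 are the standard ribosomal proteins (43 large, 31 small) and 7 are paralogues, named for a parent gene that they resemble: Rpl3l, Rpl7l1, Rpl10l, Rpl22l1, Rpl32l, Rpl39l and Rps27l. Each gene had 1 probe.

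The glands were naive and came from 3 periostin lineage tracing mice, in which cells that express or once expressed periostin carry the green fluorescent protein ZsGreen. Fixed frozen sections were hybridised with a whole-transcriptome probe panel for digital spatial profiling, in which UV light releases the probe barcodes of a chosen area for counting. Areas were picked by staining for podoplanin (Pdpn), a marker of lymphatic vessels, or smooth muscle actin (SMA), a marker of ducts and blood vessels, and within each area the ZsGreen signal was segmented. The 6 Pdpn-adjacent regions are numbers 2, 3, 4, 7, 8 and 11, and the 5 SMA-adjacent regions are numbers 1, 5, 6, 9 and 10. Of 12 collected areas, 11 were analysed here. Neither group received a treatment in the labels, and the promoter construct behind the lineage trace, the strain and the age are not given in the sources used here. Regions were not tied to mice, and each group has more regions than there were mice. Some regions therefore share a mouse, whereas the p-values below treat regions as independent. They may be too small for that reason, and their error cannot be known without the mouse of each region.

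Cytosolic ribosomes are built from ribosomal RNA and about equal amounts of each ribosomal protein, so the genes for these proteins are usually read together and at high levels. Their mRNAs typically begin with a run of pyrimidines, the TOP motif, through which the growth-controlling kinase mTOR and the protein LARP1 set their translation. Most of these genes also have many processed pseudogenes, copies of the mRNA reinserted in the genome. A few paralogues are known for restricted expression, such as Rpl3l in skeletal and heart muscle and Rpl10l and Rpl39l in the testis.

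Depth differed between regions and limits what each can show. Total endogenous counts ranged from 760761 to 3086323 in the SMA-adjacent regions. They were 2271664, 225875 and 301401 in Pdpn-adjacent regions 4, 7 and 8, but only 22757, 81760 and 30316 in Pdpn-adjacent regions 2, 3 and 11. The lowest value in the table is 1, and 90.0% of all probes stood at 1 in region 2 and 77.6% in region 11. The 9 fibroblast markers checked were all at 1 in region 2 and none was above the floor in region 3, whereas 4 to 9 of them were above it elsewhere. Fewer cells of a type and less RNA per cell cannot be told apart in these bulk areas.

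The ribosomal protein genes were among the strongest probes of every well-counted region. The level used here is a gene's count divided by the geometric mean of the 210 negative-control probes of the same region, and the floor is the mean plus 2 SDs of those probes on the log2 scale. For the 74 standard genes the median level was 5.26, 6.26 and 9.20 times background in Pdpn-adjacent regions 4, 7 and 8. It was 7.69, 3.80, 5.83, 9.44 and 10.0 times in SMA-adjacent regions 1, 5, 6, 9 and 10. The shallow regions gave 0.952 times in region 2, 3.00 in region 3 and 5.34 in region 11. In region 2 the median standard gene stood at the lowest value of 1, as did 90.0% of all probes. Its median level there is therefore set by that value and cannot show a lack of signal. In region 11, where 77.6% of all probes stood at 1, the median standard gene was above it. The median standard gene ranked at a percentile of 98.4 to 99.2 among all endogenous probes in 9 regions, but at 92.4 in region 3 and 45.0 in region 2. That last value is the rank shared by every probe at 1 in region 2.

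**Figure D1:**
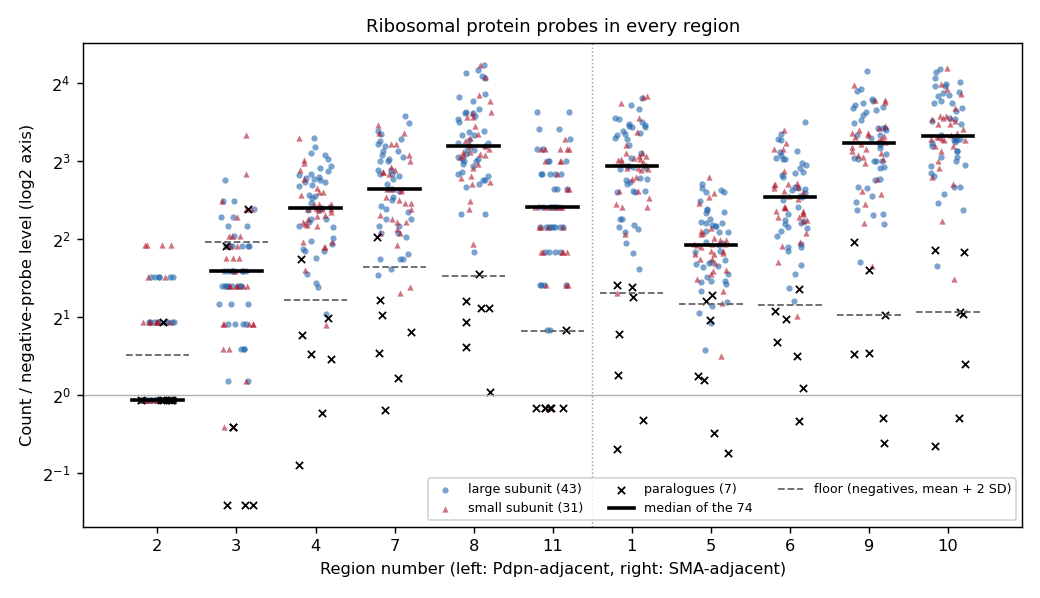
Each point is 1 probe, plotted as its count over the negative-probe level of that region on a log2 axis, with the 6 Pdpn-adjacent regions on the left and the 5 SMA-adjacent regions on the right. The median of the 74 standard genes (black bar) runs from 0.952 in region 2 to 10.0 in region 10, and the 7 paralogues (crosses) lie mostly under the floor (dashed).

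Detection was broad outside regions 2 and 3. Of the 74 standard genes, 71 were above the floor in 8 or more regions, 39 in 10 or more and 7 in all 11, among them Rps2 and Rps20. The exceptions were Rpsa, above the floor in 4 regions, Rpl36a in 6 and Rpl22 in 7. By region, 69 to 74 of the 74 passed the floor in the 8 regions above 100000 counts and 73 in region 11, but 29 in region 2 and 18 in region 3. Of all endogenous probes, 5.73% to 19.2% passed in the 8 deeper regions, 22.4% in region 11, 10.0% in region 2 and 2.77% in region 3. The floor was 1.98 counts in region 11 and 1.50 in region 2, so a count of 2 passed there, but 10.4 in region 3. Detection is therefore not comparable between these 3 regions. In region 2, 51 of the 81 genes stood at the lowest value of 1. For contrast, the 78 genes of the mitochondrial ribosome had medians of 0.889 to 1.79 times background over the 11 regions, and at most 21 of them passed the floor in any region.

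Median levels over the 11 regions ran from 2.02 times background for Rpsa, which was under the floor in most regions, to 11.2 times for Rpl41, with a median of 5.94. Among the 71 genes above the floor in 8 or more regions, the lowest was Rpl8 at 2.92, a 3.83-fold span of signals. Both ends of that span still contain background, so the span of the transcripts' own signal is at least this wide. Of the 74 genes, 52 lay between 4 and 8 times background, 8 below and 14 above. Levels of different genes were compared per probe, and each probe has its own efficiency, so their order is an order of signals and not of transcript numbers. Large and small subunit genes had almost the same level, with medians of 6.15 and 5.82 times background. The ratio of summed large to summed small subunit counts was 1.41 to 1.47 in the 8 deeper regions and 1.45 in region 11, near the ratio of the gene numbers, and lower in region 2 (1.16) and region 3 (1.28).

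The highest signals came from both subunits. Rpl41, which encodes the smallest ribosomal protein, had levels of 1.90, 3.00, 9.86, 11.2, 18.0 and 10.7 times background in Pdpn-adjacent regions 2, 3, 4, 7, 8 and 11. In SMA-adjacent regions 1, 5, 6, 9 and 10 it had 13.2, 6.51, 11.3, 17.9 and 18.1. Its groups overlapped: region 8 stood as high as regions 9 and 10, and SMA-adjacent region 5 fell below 4 of the Pdpn-adjacent regions. Rps2, Rpl17, Rpl23a, Rplp2 and Rps4x followed, with medians of 10.3, 10.2, 9.75, 9.66 and 9.31 times background. The Rpl17 probe matches 3 genome positions and those of Rps2 and Rplp2 match 2 each, so copies of these genes may share their signal.

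The lowest standard gene was Rpsa, a small subunit protein also known as a precursor of a laminin receptor. It had 0.952, 1.50, 1.86, 2.47, 3.83 and 0.889 times background in the Pdpn-adjacent regions (2, 3, 4, 7, 8 and 11), and 2.48, 1.41, 2.02, 3.15 and 2.82 in the SMA-adjacent regions (1, 5, 6, 9 and 10). Most of these values lie close to the floor, so its level was measured with little margin. Rps27a, which is made as a fusion with ubiquitin, had a median of 3.90. Rpl5 and Rpl11, which bind the 5S RNA and can also bind the p53 regulator Mdm2, had medians of 5.01 and 4.42.

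The order of the members was shared between regions. Among the 28 pairs of the 8 deeper regions, Spearman's rho over the 74 genes was between 0.786 and 0.977, with a median of 0.906. In the 27 pairs that include region 2, 3 or 11 it was between 0.205 and 0.628. These correlations are across genes that share probe efficiency and background, and they carry no test. After each region's median was divided out, a typical member varied by an SD of 0.14 (log2) over the 8 deeper regions, against 0.41 before. Rpl23, a large subunit protein, followed the others most closely with an SD of 0.058, and Rps18, a protein of the head of the small subunit, least with 0.45.

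**Figure D2:**
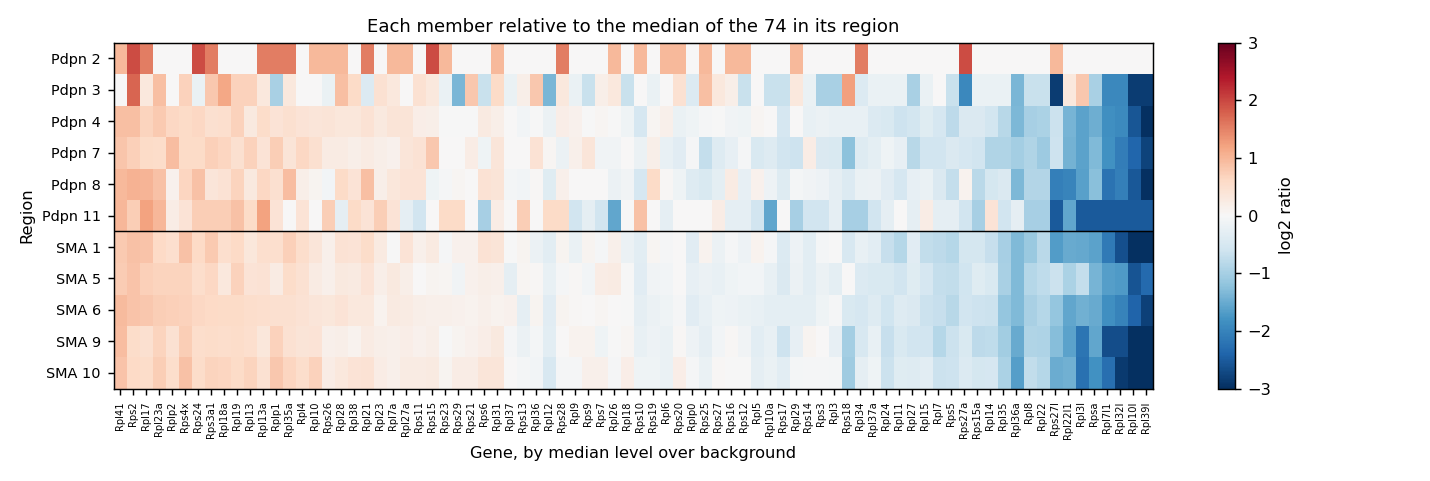
Each column is 1 of 80 genes, ordered by median level, and each row a region; colour is the log2 ratio of the gene to the median of the 74 standard genes in that region. The rows of the 8 deeper regions show nearly the same gradient, and Rps18 is above the median in Pdpn-adjacent region 3 and at 0.423 times it in region 7.

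Rps18 had a pattern of its own. It stood at 7.13 times background in region 3, at 4.48, 2.62, 6.90 and 2.67 in Pdpn-adjacent regions 4, 7, 8 and 11, and at 0.952 in region 2. In the SMA-adjacent regions 1, 5, 6, 9 and 10 it was 5.48, 3.83, 4.23, 4.61 and 4.72, a narrow range. Relative to the median standard gene, on the log2 CPM scale with a prior count of 2, it was 2.35 times in region 3, 1.01 in region 5 and 0.423 to 0.854 in the other 7 deeper regions. Rps15, a small subunit protein near the decoding site, came next among the standard genes with a relative SD of 0.27. Both genes were singled out after their values were seen. The Rps18 values in regions 3 and 7 rest on low counts, since the negative-probe level was 2.67 counts in region 3 and 6.87 in region 7. In region 7 Rps18 was under the floor of 21.5 counts.

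The upstream sequences were read for the members in a RefSeq promoter table on build GRCm38.p6, which held 59 of the 81 genes (52 standard, all 7 paralogues). An unbroken run of 5 or more C or T that covered an annotated start was present in 17 of the 52 standard genes (32.7%) and in 10.2% of 17492 protein-coding genes. The first transcribed base was C in 36.5% of the standard genes and in 16.1% of all. The windows below give 15 bases before and 15 from the start, 5′ to 3′ on the gene's strand, with the run in capitals. They show 4 standard genes with a run, the standard gene of highest signal, which has none at its annotated start, the only paralogue with a run, and 2 paralogues without one.
Rplp2, chr7:141447636-141447665, plus strand: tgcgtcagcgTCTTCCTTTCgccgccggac
Rpl28, chr7:4792950-4792979, plus strand: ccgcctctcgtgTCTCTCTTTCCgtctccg
Rps10, chr17:27635230-27635259, minus strand: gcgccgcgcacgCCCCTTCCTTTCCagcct
Rps18, chr17:33955651-33955680, minus strand: tacgtcacttccgCTCTCTCTTCCacagga
Rpl41, chr10:128549154-128549183, minus strand: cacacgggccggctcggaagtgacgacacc
Rpl32l, chr10:20208424-20208453, plus strand: aaataaaatgaccagCTTCTTCCTTggtgc
Rpl3l, chr17:24727811-24727840, plus strand: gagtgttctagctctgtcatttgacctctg
Rpl10l, chr12:66284387-66284416, minus strand: tttggcctccattttgcggctggcggtggg
A run depends on where the annotation places the start to the base, so a gene without one here may still start at a run a few bases away. Rps18, whose levels departed most from the other standard genes, is among the 17 with a run.

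Other short motifs were counted in the 300 bases around each start, on both strands, with overlaps between motifs allowed. The ETS core ACTTCCG was found in 34.6% of the 52 standard genes and 9.39% of all protein-coding genes, and the YY1 core GCCATNTT in 19.2% and 7.46%. The GC box GGGCGG was found in 61.5% against 49.2%, the letters TATAAA in 9.62% against 14.8%, and the E-box CACGTG in 7.69% against 8.91%. A match is a description of letters and not a binding site. In these regions, the 17 standard genes with a pyrimidine run had a median level of 6.31 times background and the 35 without had 5.82. Their median differences between the groups were -0.31 and -0.34 on the log2 scale.

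The share of all endogenous counts taken by the 81 genes describes them together. It was 0.558%, 0.819%, 1.42%, 1.51%, 1.95% and 1.61% in Pdpn-adjacent regions 2, 3, 4, 7, 8 and 11. It was 1.81%, 1.07%, 1.43%, 2.02% and 2.20% in SMA-adjacent regions 1, 5, 6, 9 and 10. The groups overlapped, with means of 1.31% ± 0.521 (SD, n = 6) and 1.71% ± 0.455 (SD, n = 5), a difference of -0.395 percentage points. The exact 95% binomial interval was 0.465% to 0.664% in region 2 and 2.18% to 2.22% in region 10, and these intervals cover counting error only. The low shares of the Pdpn-adjacent group were those of regions 2 and 3, and without regions 2, 3 and 11 the difference was -0.0812 percentage points. With 1 taken from every count, the share became 1.65% in region 2 and 3.94% in region 11, and the difference turned to 0.217 percentage points.

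The share also moved with how much of a region's signal stood above background. The part of all endogenous counts above the mean of the negative probes was 26.0%, 30.0% and 41.4% in regions 4, 7 and 8, and 34.1%, 21.6%, 31.7%, 39.8% and 41.6% in regions 1, 5, 6, 9 and 10. It was 6.00%, 18.8% and 22.2% in regions 2, 3 and 11. Over the 8 deeper regions, the members' share of counts differed 2.05-fold between the highest and the lowest region, and their share of the counts above background 1.35-fold, from 3.50% to 4.72%. By group, that second share was 3.98% ± 1.15 (SD, n = 6) beside Pdpn and 4.16% ± 0.558 (SD, n = 5) beside SMA.

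**Figure D3:**
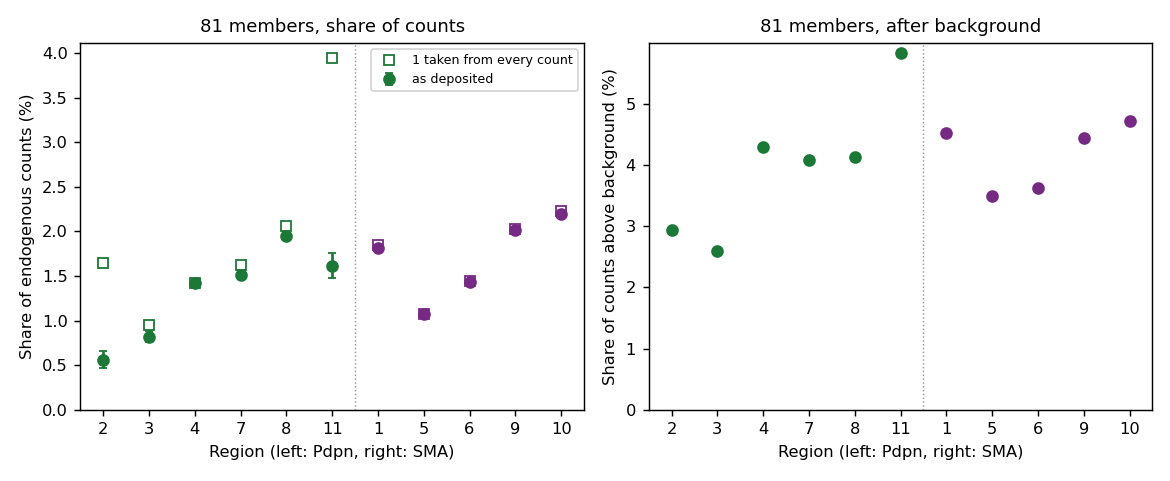
The left panel gives the members' share of endogenous counts in each region with its exact 95% binomial interval (filled) and the share after 1 was taken from every count (open squares); the right panel gives their share of the counts above background. Green marks Pdpn-adjacent and purple SMA-adjacent regions; taking 1 from every count raises region 2 from 0.558% to 1.65% and region 11 from 1.61% to 3.94%.

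Single regions set the extremes for nearly all members at once. Levels between regions were compared as CPM, counts scaled to equal library size with TMM factors. Over all regions the lowest CPM was in region 2 for 62 of the 74 standard genes and in region 3 for 10, and the highest in region 10 for 47. Among the 8 deeper regions, SMA-adjacent region 5 was lowest for 73 of the 74, and SMA-adjacent region 10 highest for 54. The lowest and the highest of the well-counted regions were thus both beside SMA structures. The median CPM of the 74 was 37.5, 98.8, 174, 200, 239 and 206 in Pdpn-adjacent regions 2, 3, 4, 7, 8 and 11. It was 229, 130, 186, 282 and 292 in SMA-adjacent regions 1, 5, 6, 9 and 10. The group means were 159 ± 76.0 (SD, n = 6) and 224 ± 67.6 (SD, n = 5).

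No ribosomal protein gene differed between the groups beyond the spread of the regions. With edgeR's quasi-likelihood test on all 19935 probes kept, 0 of the 81 genes passed an adjusted p of 0.05 in either direction, where 0.0100% of all probes were called higher and 0.00% lower beside Pdpn. At an unadjusted p of 0.05, 0 of 81 passed either way, where 2.84% of all probes were higher and 3.19% lower, 6.03% in all. DESeq2 and limma-voom also called 0 of 81 at the adjusted threshold. The smallest adjusted p among the members was 0.925. The SEs of single members ran from 0.15 to 0.47 on the log2 scale, so differences of the size seen here could not be resolved.

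The fitted differences nevertheless lay mostly on one side. The median log2 fold change, Pdpn-adjacent minus SMA-adjacent, was -0.31 over the 81 genes and 0.01 over all probes tested. It was below 0 for 75 of 81 genes, where 48.8% of all probes were below 0. With regions weighted equally, the mean log2 CPM was lower beside Pdpn for 79 of 81 genes, including all 74 standard ones, where 53.7% of all probes were lower. The genes are read from the same 11 regions and move together within them, so these counts are not independent evidence for a difference. Without regions 2, 3 and 11 the median was -0.11 with 61 of 81 genes below 0, where all probes in that fit had a median of 0.00 and 49.7% below 0. Without SMA-adjacent region 10 the members' median was -0.17.

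Markers of several cell types also had unequal levels in the groups. At an unadjusted p of 0.05 by edgeR, 2.84% of all probes were higher and 3.19% lower beside Pdpn. The summed CPM of 9 fibroblast markers ran from 338 to 2328 beside Pdpn and from 1800 to 4582 beside SMA, with a median fold change of -0.94 and 5 lower at an unadjusted p of 0.05. The 8 smooth muscle markers, a tissue stained for to choose the SMA-adjacent areas, ran from 375 to 1141 and from 1275 to 6061, with a median of -2.13 and 7 lower. The 12 skeletal muscle markers went the other way, from 432 to 27267 beside Pdpn and from 412 to 3826 beside SMA. Their median was 2.03, and 8 were higher at an unadjusted p of 0.05 by edgeR. None of the 12 had an exact permutation p under 0.05, and the smallest was 0.32. The high sums were those of Pdpn-adjacent regions 3 (27267) and 7 (12153), whereas regions 4 and 11 had 432 and 617 CPM. All 10 luminal epithelial markers had a fold change above 0, with a median of 0.78. Of these, 9 were higher at an unadjusted p of 0.05 by edgeR, 1 of them at the adjusted threshold, and 2 had an exact permutation p under 0.05. Their summed CPM ran from 411 to 916 beside Pdpn and from 390 to 513 beside SMA, and was highest in regions 4 (916) and 8 (794). The lists for adipocytes, blood endothelium, macrophages and lymphatic endothelium had medians of -0.61, -0.44, -0.18 and -0.12, with 0, 2, 2 and 0 genes lower at an unadjusted p of 0.05. The part of these cell types in the ribosomal protein values was not tested.

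**Figure D4:**
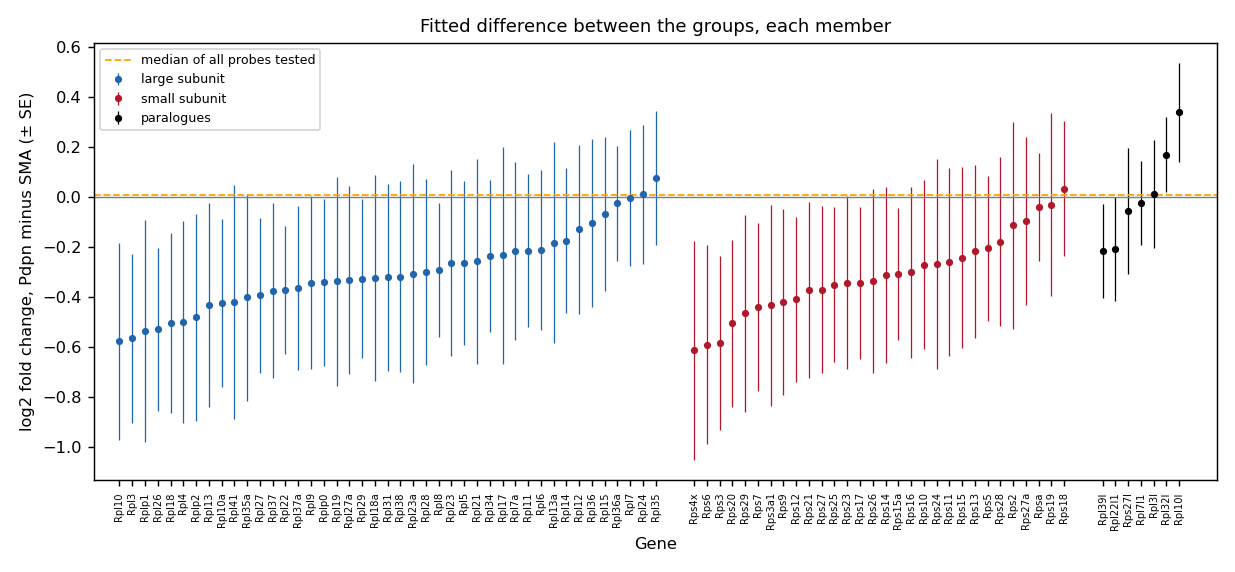
Points are the fitted log2 fold changes of 80 of the 81 genes, Pdpn-adjacent minus SMA-adjacent, with bars of 1 SE, sorted within the large subunit, the small subunit and the paralogues; the dashed line is the median of all probes tested (0.01). Values run from -0.61 for Rps4x to 0.34 for Rpl10l, and the subunits cover the same range.

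The subunits did not separate. The median fold change was -0.32 for the 43 standard genes of the large and -0.31 for the 31 of the small subunit, while the 7 paralogues had -0.02. Among members with a single probe position the median was -0.31, as it was among those with several. Of the 80 members with any position, 25 (31.3%) matched more than 1 place in the genome, against 2.98% of all probes with a position.

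The members of smallest p among those lower beside Pdpn came from both subunits. Rps3, at the mRNA entry channel of the small subunit, had 37.5, 49.4, 154, 149, 216 and 137 CPM in Pdpn-adjacent regions 2, 3, 4, 7, 8 and 11. It had 221, 115, 169, 282 and 282 CPM in SMA-adjacent regions 1, 5, 6, 9 and 10. Regions 2 and 3 lay below every SMA-adjacent region, the other 4 did not. Its log2 fold change was -0.59 ± 0.35 (SE), with an adjusted p of 0.925 by edgeR and an exact two-sided permutation p of 0.0952. Rpl3, part of the peptidyl transferase region of the large subunit, had 125 ± 66.2 CPM (SD, n = 6) beside Pdpn and 206 ± 65.8 (SD, n = 5) beside SMA.

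Rpl26, a large subunit protein near the exit tunnel, was the 1 member with an exact permutation p under 0.05, at 0.0476, where 7.91% of all probes had one. It had 140 ± 60.0 CPM (SD, n = 6) beside Pdpn and 232 ± 58.8 (SD, n = 5) beside SMA, with an adjusted p of 0.927 by edgeR. Rps20, of the head of the small subunit, had a fold change of -0.51 ± 0.33 (SE). Rps4x, encoded on the X chromosome, had the most negative value, -0.61 ± 0.44 (SE). It had 37.5, 160, 260, 298, 375 and 274 CPM beside Pdpn (regions 2, 3, 4, 7, 8 and 11) and 424, 207, 300, 470 and 536 beside SMA (regions 1, 5, 6, 9 and 10). Its groups overlapped, as did those of every other member, where 0.838% of all probes did not overlap.

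Among members with a role of their own, the stalk proteins that recruit elongation factors had values near the rest. Rplp0, the base of the stalk, had 142 ± 69.8 CPM (SD, n = 6) beside Pdpn and 196 ± 73.0 (SD, n = 5) beside SMA. Rplp1 had 222 ± 118 and 342 ± 146, and Rplp2 had 215 ± 125 and 330 ± 81.5. Their fold changes were -0.34, -0.54 and -0.48, and none passed the test. Rps6, the substrate of the S6 kinases, was among the 3 members of largest spread over all regions, with an SD of 1.05 on the log2 scale, alongside Rps29 (1.12) and Rps4x (1.04). Rps2, Rps28 and Rps15 spread least, with 0.47, 0.52 and 0.53. They kept more signal than most members in region 2, where Rps2 and Rps15 stood at 4 counts each and Rps28 at 3. Rps4x stood at the lowest value of 1 there. Over the 8 deeper regions alone, no standard gene had an SD above 0.55 on the log2 scale. The largest SDs over all regions therefore rest on the shallow regions. Small spread did not carry over either: Rps15 was among the 2 standard genes of largest spread relative to the median standard gene in the deeper regions.

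Most paralogues were near background. Rpl10l, a germline copy of the X-linked Rpl10, did not exceed 1.53 times background in any region, and Rpl39l did not exceed 1.02. Rpl7l1 and Rpl32l did not exceed 2.05 and 2.17, and none of these 4 was above the floor in any region. In the deeper regions the count of Rpl10l was at most 0.158 of that of Rpl10, and that of Rpl7l1 was 0.280 to 0.518 of that of Rpl7. Both are upper limits, since the paralogue counts were under the floor and include background. By this floor the 4 paralogues were not detected, which does not show that they were absent. Rpl7l1 had 81 counts in region 10, against a floor of 82.5 and a negative-probe level of 39.4. Rpl10l had a fold change of 0.34 ± 0.20 (SE, adjusted p 0.925 by edgeR), the highest value of the 81. Its 31.5 ± 10.3 CPM (SD, n = 6) and 23.0 ± 6.43 (SD, n = 5) come from counts under the floor in every region.

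The other 3 paralogues rose above the floor in some regions. Rps27l, known as a p53 target, passed it in 7 regions and Rpl22l1, the paralogue of Rpl22, in 4. These include region 2 for Rps27l and region 11 for Rpl22l1, each on only 2 counts against floors of 1.50 and 1.98. Over the 8 deeper regions the count ratio of Rps27l to Rps27 was 0.288 to 0.848 and that of Rpl22l1 to Rpl22 was 0.462 to 0.882. These ratios compare probes of unequal efficiency and include background, and where the paralogue is under the floor they are upper limits. The Rpl22l1 probe matches 2 positions, on chromosomes 3 and 5, and the Rps27 probe also matches 2, so either signal may have a second source.

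Rpl3l, the muscle paralogue of Rpl3, passed the floor in 5 regions (1, 3, 5, 8 and 9) and had 1 region that stood apart. Its probe lies at chr17:24735473-24735508, and that of Rpl3 at chr15:80081694-80081731, each with a single position. Rpl3l had 0.952, 5.25, 1.69, 2.04, 2.94 and 0.889 times background in Pdpn-adjacent regions 2, 3, 4, 7, 8 and 11. It had 2.61, 2.30, 2.10, 2.04 and 2.08 in SMA-adjacent regions 1, 5, 6, 9 and 10. Region 3 was highest, on 14 counts of Rpl3l, above the floor of 10.4 counts there, and 4 counts of Rpl3, under it. The count of Rpl3l was therefore the higher of the pair in region 3, but no ratio can be taken against an Rpl3 count at background. Where both passed the floor, the ratio of Rpl3l to Rpl3 was 0.341 in region 1, 0.740 in region 5, 0.383 in region 8 and 0.255 in region 9. Rpl3l was barely above the floor there, with 59, 256, 23 and 176 counts against floors of 55.8, 249, 22.6 and 175.9. These ratios still contain background and are read as upper limits.

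Skeletal muscle markers and Rpl3l were both highest in region 3, but their order differed in the other regions. All 12 markers on the list were above the floor in region 3, with a summed 27267 CPM, the highest of the 11 regions. Region 7 followed with 12153 CPM and 11 markers above the floor, and there Rpl3l was at 2.04 times background, under the floor. Region 5 had 3826 CPM and region 10 had 2450, with 10 markers each above the floor, and Rpl3l passed the floor in region 5 only. In regions 4 and 6, with 432 and 412 CPM and 1 marker above the floor, Rpl3l was under the floor. Rpl3l passed the floor in regions 1, 8 and 9, where the markers summed to 680, 1306 and 1206 CPM. In regions 2 and 11 the markers summed to 2027 and 617 CPM, and Rpl3l stood at the lowest value of 1. The part of muscle RNA in the Rpl3l values was not tested. The fitted fold change of Rpl3l was 0.01 ± 0.22 (SE), and -0.18 without region 3.

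**Figure D5:**
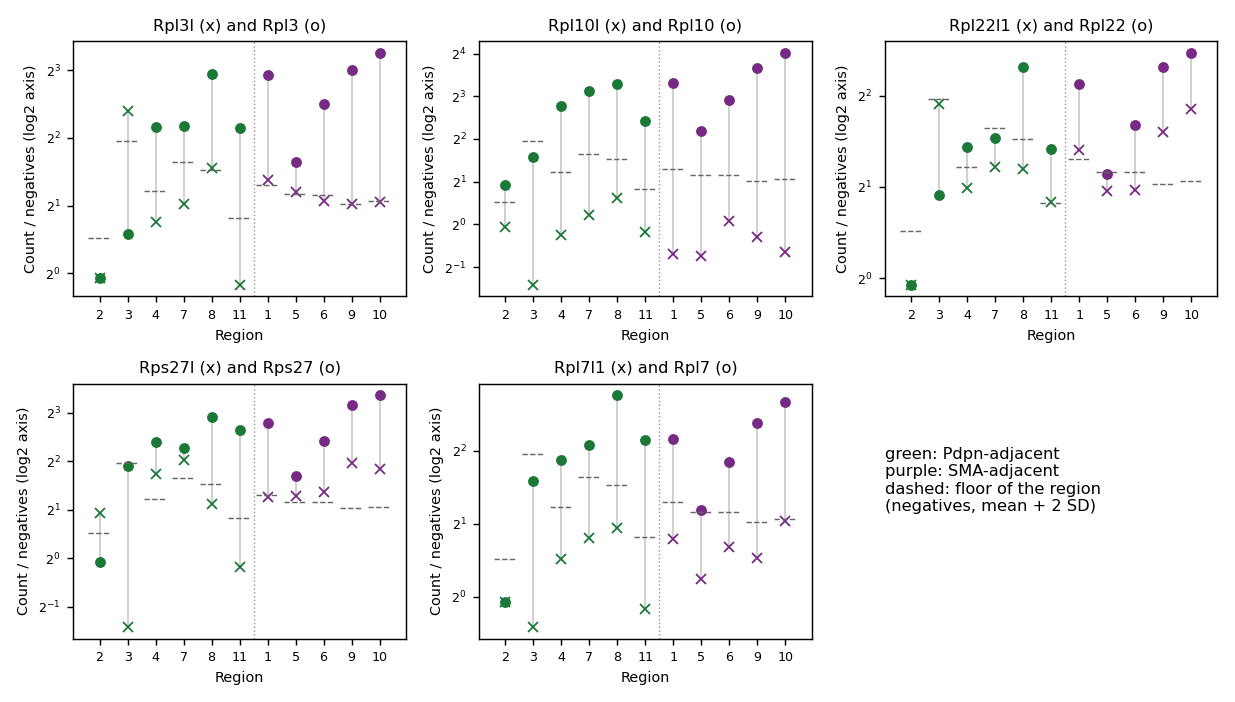
Each panel shows a paralogue (cross) and its parent gene (circle) in every region as count over the negative-probe level on a log2 axis, green for Pdpn-adjacent and purple for SMA-adjacent, with the region's floor dashed. Rpl10l stays under the floor in all regions, and Rpl3l lies above Rpl3 in region 3, with 14 counts and 4 counts, the latter under the floor.

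Genes that work beside the ribosomal proteins were read in the same fit, from lists of known members. Fau and Rack1, which supply further parts of the ribosome but carry other names, and Rpl36al, which the naming rule leaves out, had fold changes of -0.36, -0.35 and -0.36, and none passed the test. Of 12 measured genes for elongation factors and other TOP mRNAs, 0 passed the adjusted threshold, 12 were below 0 and 2 were lower at an unadjusted p of 0.05, with a median of -0.27. Those 2 were Nap1l1, a histone chaperone above the floor in 3 regions, with 47.6 ± 14.7 CPM (SD, n = 6) beside Pdpn and 82.0 ± 25.8 (SD, n = 5) beside SMA, and Eif4b, a cofactor of the initiation helicase, with 84.2 ± 33.5 and 127 ± 28.5. The elongation factor Eef2 had a median level of 13.0 times background and a fold change of -0.66 ± 0.52 (SE).

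None of 26 initiation factors on a list without Eif4b, 25 ribosome biogenesis genes or 11 regulators of TOP mRNA translation passed either threshold by edgeR. Their medians were -0.09, -0.01 and -0.18. With regions weighted equally, 25 of the 26 initiation factors had a lower mean beside Pdpn, with a median of -0.37. The biogenesis genes lay near background, with list medians of 0.889 to 1.47 times over the regions and at most 7 of 25 above the floor, so little of a difference could show there. Of 10 S6 and RSK kinase genes, 1 was lower at an unadjusted p of 0.05, with a list median of 0.05, and outside region 2 none was above the floor in any region. Of 78 mitochondrial ribosomal protein genes, 1 was higher and 3 were lower at an unadjusted p of 0.05, a share near the 6.03% of all probes, and none passed the adjusted threshold. Their median was -0.03, at levels near background.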

How the data were processed

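The deposited file holds unnormalized counts of each probe in each region, judged by their values, and gives probe positions on GRCm38.p6, per the file headers. How reads became counts, and whether 1 was added to each, was not given in the sources used here. The 210 negative probes gave each region's background and did not enter library sizes or the fit. Differences were fitted with edgeR 4.0.16 (quasi-likelihood test, TMM factors, filterByExpr, Benjamini-Hochberg over 19935 probes) as Pdpn-adjacent minus SMA-adjacent over 11 regions with no covariate, and SEs are those implied by the test's p. All 81 genes passed the filter. The fit was also run on counts simulated independently for each probe, at the median dispersion of all probes. The members varied more (median square root of the dispersion 0.31, against 0.10 for all probes) and moved together. That run therefore does not measure the power for these genes. A two-sided exact permutation test over 462 assignments used log2 CPM with a prior count of 2; its smallest p is 0.0022. DESeq2 1.42.0 and limma-voom 3.58.1 were alternatives.

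Named were the paralogues and their parents, stalk genes, Rpsa, Rps27a, Rpl5 and Rpl11, the 6 highest and 6 lowest by level, the 4 of smallest p in each direction, and the 3 of largest and 3 of smallest spread. Rpl32l was added to the paralogues after the file was seen. The members and lists were chosen with earlier results of these data known. RefSeq promoters (GRCm38.p6) were matched by symbol. Protein and probe sequences were not used here. Values of some single genes are not reported here, and 1 gene is left out of the plots that name genes.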

Additional observations from a re-analysis of the deposited data

Results flagged for a closer look

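Of 72 sets of values examined (35 named genes and the members' share, in each of the groups), 3 held a region far from the others of its group by Dixon's test, which flags about 1 set in 20 by chance. Rpl3l stood at 173 CPM in Pdpn-adjacent region 3, where the other 5 regions had 34.3 to 76.4. Rps18 stood at 163 CPM in SMA-adjacent region 1, where the other 4 had 131 to 138. Rpl39l, which was under the floor in all regions, stood at 19.3 CPM in SMA-adjacent region 9, where the other 4 had 23.7 to 25.3.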

How the results depend on the processing

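No member passed the adjusted threshold under any alternative run. At an unadjusted p of 0.05 limma-voom gave 2 of 81 members, where it gave 16.3% of all probes. Leaving out 1 region at a time gave 0 to 3, with 3 without SMA-adjacent region 5 (9.37% of all probes) or Pdpn-adjacent region 8 (5.98%). The median fold change stayed below 0 throughout, from -0.46 to -0.17 with 1 region left out. limma-voom moved the median of all probes to 0.14, and the members' median was -0.49 relative to it. The difference in the share of counts was 0.22 percentage points with 1 taken from every count, against -0.40; with 1 region left out it ran from -0.55 to -0.24.

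Members near 0 changed sign. Without regions 2, 3 and 11, Rpl7 had a log2 fold change of 0.095, Rpl7l1 0.029, Rps27l 0.12, Rpl3l -0.14 and Rps18 -0.0045. Scaled to the negative probes, Rpl3l had -0.031, Rpl35 -0.012 and Rps18 -0.062. With total counts, Rpl7 had 0.036 and Rpl7l1 0.0077. With limma-voom, Rpl7 had 0.054, Rpl39l 0.21 and Rps18 -0.26. With 1 taken from every count, Rpl7 had 0.0063. With 1 region left out, the ranges were -0.18 to 0.27 for Rpl3l, -0.30 to 0.18 for Rpl39l, -0.098 to 0.054 for Rpl7l1, -0.32 to 0.079 for Rps27l, -0.15 to 0.14 for Rpl7, -0.10 to 0.18 for Rps18 and -0.17 to 0.22 for Rpl35. The cause was not tested.

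No paired analysis was possible because no region number occurs in both groups and the labels tie no region to a mouse. Depth limits regions 2, 3 and 11 most.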
